A study of Rattus norvegicus with 11 samples.

Results

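Genes of fatty acid, triglyceride and cholesterol synthesis were examined in the livers of rats given mequindox and of control rats. The set was a list of 43 genes chosen by name. Each gene was represented by a probe set that carries its symbol alone, and where several did, by the one with the highest mean log2 signal over the 11 arrays. A probe set was found for 42 of the 43 genes, all 42 passed the filter on dim signal, and they stood among 10714 genes tested in all. Hmgcs1, the synthase at the head of the sterol pathway, was not analysed here.

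The arrays held whole liver RNA, 1 array per animal. High-dosed animals 2, 3, 4, 5, 6, 8, 10 and 11 had been given the high dose of mequindox, a quinoxaline N-oxide antibacterial used in livestock, and animals 1, 2 and 9 were controls. All were Wistar rats, an outbred strain, labelled as week 9 of age, except high-dosed animal 8, labelled week 10. The dose in mass, the length of treatment, the sex and the feeding state are not known from the labels, and the study picked these groups for arrays with the metabolite profiles and clinical chemistry of the animals known. The comparison asks how the drug changed liver gene expression.

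As background, the liver makes fatty acids from surplus carbohydrate, packs them into triglyceride and makes cholesterol. Transcription factors of the SREBP family sit in the membrane of the endoplasmic reticulum, bound to the escort protein Scap. Insig proteins hold this complex in place when sterols are plentiful, and release of it lets SREBP be cut and move to the nucleus. The SREBP-1c form, from Srebf1, acts mainly on genes of fatty acid and triglyceride synthesis, together with the carbohydrate sensor ChREBP, encoded by Mlxipl, while SREBP-2, from Srebf2, acts mainly on the sterol pathway. The members were therefore set out as 14 lipogenic genes, 21 sterol genes, of which 20 were measured, and 8 further genes of triglyceride handling and SREBP control.

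Some arrays stood apart. High-dosed animals 8, 10 and 11 lay at 17.8 to 27.3 on the first principal component, which held 32.3% of the variance, and the other 8 arrays lay at -20.7 to -1.48. The same 3 arrays had the lowest median intensities, 149 to 153, against 159.3 to 186.6. The 3' to 5' ratio of the beta-actin control probe sets was 1.99 to 2.74 in high-dosed animals, highest in animal 2, and 2.15 to 2.31 in controls. Hepatocyte markers matched the label of liver, with albumin at 33648 to 34328 in high-dosed animals and 33424 to 34254 in controls. Of 9 hepatocyte markers, Apoa1 rose and Asgr1 fell (11.1% each way), where 7.23% of all genes rose and 2.6% fell. Of 6 endothelial markers, 3 rose (Pecam1, Stab2 and Emcn), 50% of that list. Kdr and Tek lay higher and Lyve1 lower (log2 fold change, high-dosed minus control, -0.12), and these did not pass. The mean log2 signal of the list, relative to the 11 arrays, was 0.028 to 0.15 in high-dosed animals and -0.30 to -0.11 in controls. Of 7 macrophage markers, Mrc1 rose (14.3% of that list). Cd163 lay lower (-0.22) and the rest higher, and these did not pass. The list means overlapped, at -0.13 to 0.38 in high-dosed animals and -0.44 to 0.040 in controls. None of the measured adipocyte markers Fabp4, Cfd, Cidea and Lipe passed in limma, 0 of them at an unadjusted p below 0.05. Control 2 stood apart in the mean of that list, at 1.02. The high-dosed animals had -0.27 to 0.17 and the other controls -0.22 and -0.087. Among the markers above the signal filter only Fabp4 had its highest value in control 2. Cfd was 946 in control 2 and 949 in high-dosed animal 11. Cidea was 2079 in control 2 and 2822 in control 1. Lipe was 799 in control 2 and 837 in high-dosed animal 6. Fabp4, the fatty acid binding protein of adipocytes, had an intensity of 55 to 348 in high-dosed animals, 1880 in control 2, and 29 and 76 in controls 1 and 9. Adipoq, encoding adiponectin, had 28 to 80 in high-dosed animals, 254 in control 2, and 27 and 24 in controls 1 and 9, under the signal filter. Plin1 and Lep lay under the filter too. A Plin1 probe set had 30 to 55 in high-dosed animals, 334 in control 2, and 40 and 28 in controls 1 and 9. The other Plin1 probe set had 66 to 96 in high-dosed animals and 102, 102 and 90 in controls 1, 2 and 9. Lep had 53 to 75 in high-dosed animals, 98 in control 2, and 81 and 64 in controls 1 and 9. No marker stood at 0. The part of adipose or endothelial RNA in the results below was not tested. In whole liver, fewer cells of a type and less RNA per cell cannot be told apart.

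Few members changed, and the list did not move one way. Of 42 members, 3 rose (Fads1, Fads2 and Lpin2), 3 fell (Mlxipl, Insig1 and Pmvk) and 36 did not pass (limma, adjusted p below 0.05 over all genes tested). The 6 calls were 14.3% of the members, where 9.84% of all genes were called. The 3 rises were 7.14% of the members, where 7.23% of all genes rose, and the 3 falls were 7.14%, where 2.6% of all genes fell. The log2 fold changes, as high-dosed minus control, ran from -0.52 to 0.69, with 21 above 0 and 21 below, and their median was 0.0024, against 0.017 over all genes. The animals of the groups did not overlap for 6 members, which is 14.3% of the list, where 12.1% of all genes did not overlap. These 6 were Fads1, Fads2 and Scap, higher in all high-dosed animals, as 8.69% of all genes were, and Pmvk, Elovl5 and Agpat2, lower in all of them, as 3.37% of all genes were. The counts of calls rested on single animals in part, since 1 member rose without control 2, 0 fell without control 1, 1 fell without control 9 and 5 fell without high-dosed animal 10. The counts over all genes moved too. With all animals 775 genes rose and 279 fell, and these counts were 220 and 75 without control 1, 557 and 133 without control 2, 490 and 243 without control 9, and 652 and 266 without high-dosed animal 10.

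**Figure D1:**
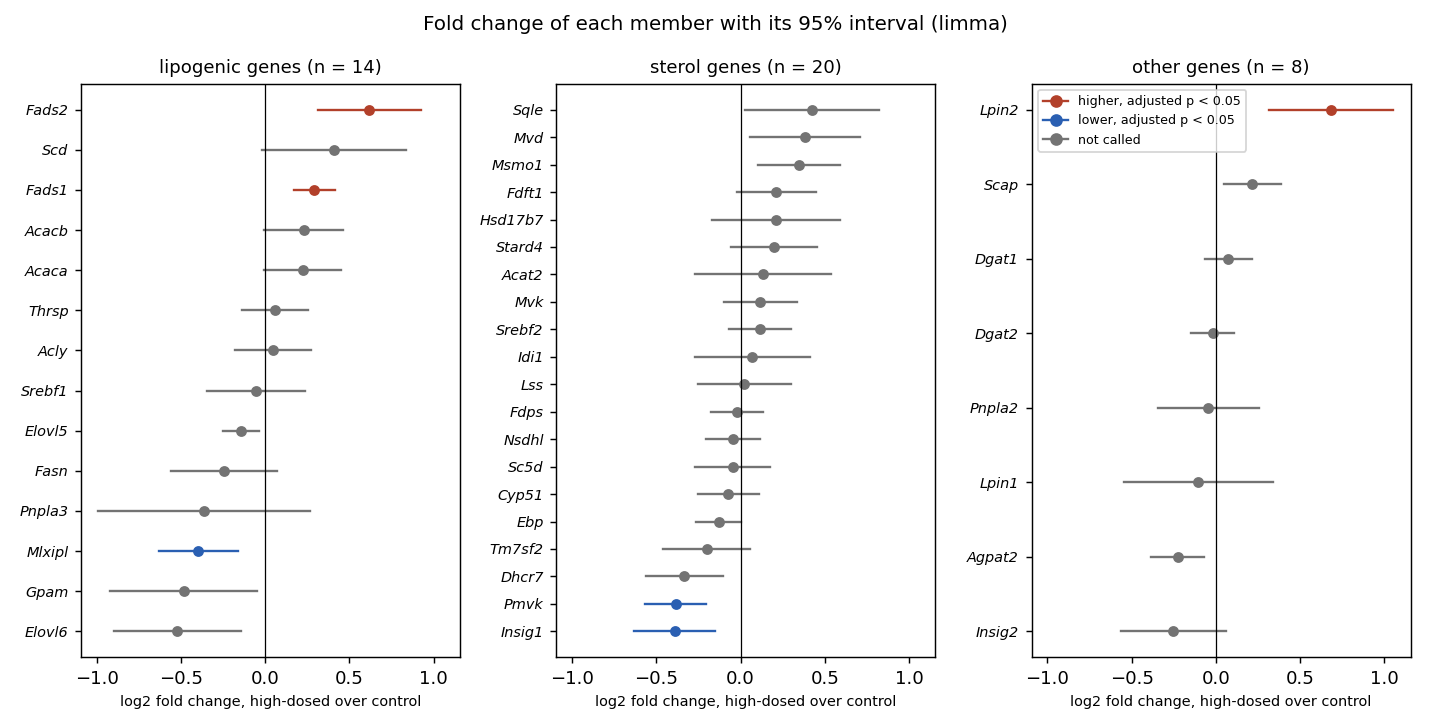
Log2 fold change of each measured member, high-dosed over control, with its 95% interval from the limma fit (8 high-dosed and 3 control animals), sorted within the 14 lipogenic, 20 sterol and 8 other genes. Most intervals include 0, and the 6 coloured genes, Fads2, Fads1, Lpin2, Mlxipl, Pmvk and Insig1, passed the test.

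Both desaturases of polyunsaturated fatty acids rose, and Fads1 had the smallest adjusted p of the members. Fads1 and Fads2 place double bonds in the chains from which arachidonic acid and docosahexaenoic acid are made, and they lie on rat chromosome 1 with 0 protein-coding genes between them in the RefSeq annotation. Fads1 had intensities of 10474, 11383 and 12567 in high-dosed animals (lowest, median and highest of 8), against 9992, 8671 and 9129 in controls 1, 2 and 9. Every high-dosed animal lay above every control. Fads1 rose 1.22-fold (log2 fold change 0.29 ± 0.056, SE, 8 high-dosed and 3 control animals, limma adjusted p = 0.00705), and it stayed called in all 22 other settings, the highest adjusted p being 0.0398. Fads2 had intensities of 6502, 6947 and 8607 in high-dosed animals, against 4906, 3295 and 6218 in the controls. The groups did not overlap here either, and control 2 was by far the lowest. Fads2 rose 1.53-fold (0.62 ± 0.14, limma adjusted p = 0.0172). It was no longer called when control 1 was left out (0.66, limma adjusted p = 0.062). Nor was it called without control 2, the animal with the highest Fabp4 and Adipoq (0.37, limma adjusted p = 0.0525).

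**Figure D2:**
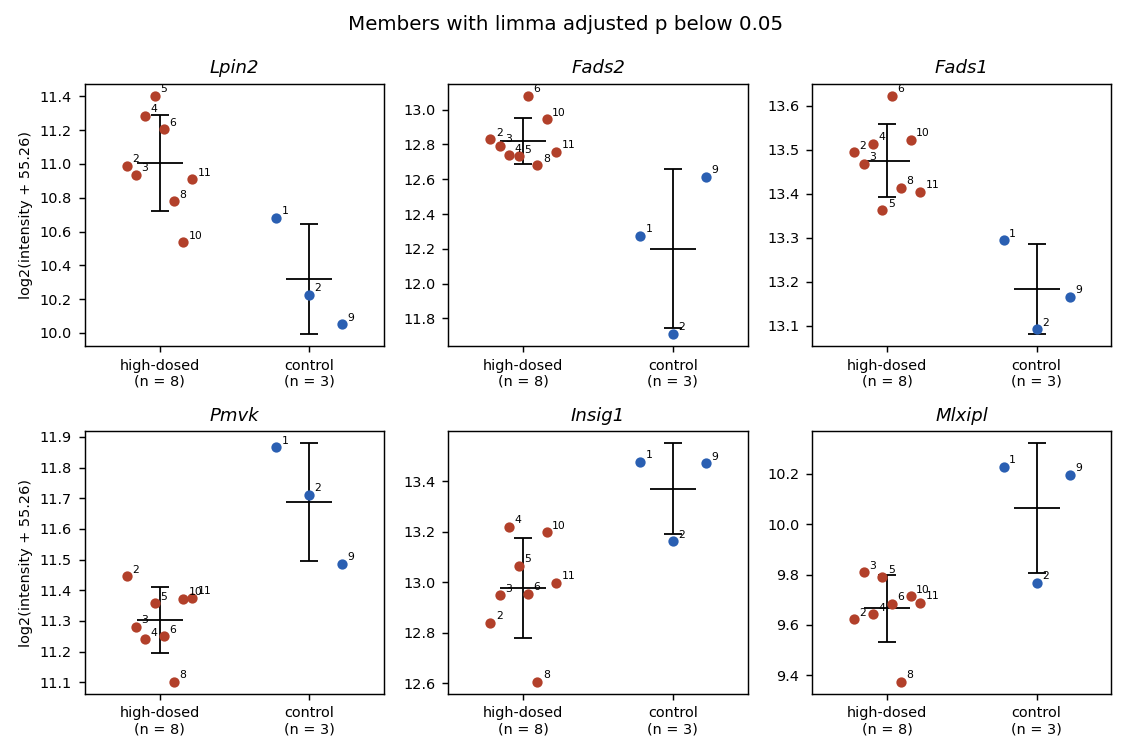
Log2(intensity + 55.26) of each animal for the 6 members that passed, high-dosed animals in red and controls in blue, labelled with the animal number, and bars for the mean ± SD of each group (n = 8 and n = 3). The groups are fully apart for Fads2, Fads1 and Pmvk and overlap for Lpin2, Insig1 and Mlxipl.

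The promoters of Fads1, Fads2 and Insig1 are shown because these, with Pmvk, were the called members of the lipogenic and sterol lists with the smallest adjusted p, at most 2 per list. They are RefSeq sequences of build GRCr8, from 250 bases before to 50 bases after the start of the gene, and capitals mark the motifs CCAAT (bound by NF-Y, which works beside SREBP), GGGCGG (bound by Sp1) and TCACNCCAC (a sterol element), searched on both strands.
Fads1, chr1:216252442-216252741, plus strand: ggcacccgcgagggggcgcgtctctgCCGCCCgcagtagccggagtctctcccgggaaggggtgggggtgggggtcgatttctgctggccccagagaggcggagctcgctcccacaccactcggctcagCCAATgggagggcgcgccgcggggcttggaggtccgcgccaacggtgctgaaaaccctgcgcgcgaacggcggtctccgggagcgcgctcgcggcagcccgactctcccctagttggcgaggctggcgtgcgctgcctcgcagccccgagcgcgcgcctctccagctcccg
Fads2, chr1:216171984-216172283, minus strand: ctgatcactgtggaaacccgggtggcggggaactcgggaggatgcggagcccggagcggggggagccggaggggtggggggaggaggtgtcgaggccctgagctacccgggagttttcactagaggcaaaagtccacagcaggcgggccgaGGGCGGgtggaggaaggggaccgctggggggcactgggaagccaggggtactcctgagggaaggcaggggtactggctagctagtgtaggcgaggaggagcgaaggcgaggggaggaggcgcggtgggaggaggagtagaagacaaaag
Insig1, chr4:8057720-8058019, minus strand: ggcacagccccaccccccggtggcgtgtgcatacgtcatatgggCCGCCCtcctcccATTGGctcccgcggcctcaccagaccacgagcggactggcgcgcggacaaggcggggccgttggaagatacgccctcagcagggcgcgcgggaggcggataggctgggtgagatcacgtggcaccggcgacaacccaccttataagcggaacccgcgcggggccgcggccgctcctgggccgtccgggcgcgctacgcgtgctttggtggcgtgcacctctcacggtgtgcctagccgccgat
The Fads1 promoter holds 1 CCAAT, starting 121 bases before the gene start, and 1 GGGCGG on the opposite strand. The Fads2 promoter holds 1 GGGCGG, starting 99 bases before the gene start, and no CCAAT. The Insig1 promoter holds CCAAT and GGGCGG close together, both on the opposite strand. No promoter of the 34 members matched in the table holds TCACNCCAC, a sequence that 1.12% of all 33469 promoters hold. CCAAT was found in 14 of 17 sterol genes and 9 of 11 lipogenic genes with a promoter, where 37.5% of all promoters hold it, and GGGCGG in 15 of 17 and 6 of 11, where 33.1% do. These matches describe the letters of the windows only.

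The other genes of elongation and desaturation did not pass. Scd, the desaturase that makes oleic acid, had intensities of 8044, 13225 and 16783 in high-dosed animals, against 8523, 7329 and 13983 in controls 1, 2 and 9. High-dosed animal 6 stood with the low controls, and control 9 with the other high-dosed animals. The log2 fold change was 0.41 ± 0.20 (limma adjusted p = 0.221). Elovl6, which lengthens palmitic acid to stearic acid, had the lowest fold change of the list, -0.52 ± 0.17 (limma adjusted p = 0.076), with 1042 to 1997 in high-dosed animals and 2942, 1858 and 2243 in controls. Its second probe set gave -0.72. Elovl5, the elongase of polyunsaturated chains, had 9497 to 11244 in high-dosed animals, against 11403, 11509 and 11314 in controls. Its groups did not overlap but the difference was small (-0.14 ± 0.049, limma adjusted p = 0.0832), and it was called without high-dosed animal 10 (-0.16, adjusted p = 0.0476).

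None of the 4 genes grouped under fatty acid synthesis passed in the limma fit, and 0 of the probe sets used had an unadjusted p below 0.05. Fasn, the fatty acid synthase, had 3118, 4833 and 5785 in high-dosed animals, against 4862, 5966 and 5719 in controls 1, 2 and 9. Animal 8 was the lowest and the groups overlapped (-0.25 ± 0.15, limma adjusted p = 0.323). A second, dimmer Fasn probe set gave -0.44 ± 0.14, with an unadjusted p of 0.00964 and a limma p of 0.0882 when adjusted over all probe sets. Acacb, the acetyl-CoA carboxylase that restrains fatty acid oxidation, had 214, 272 and 304 in high-dosed animals, against 260, 179 and 216 in controls (0.23 ± 0.11, limma adjusted p = 0.208). Acaca, the carboxylase that feeds synthesis, gave 0.22, and its dim second probe set lay at 0 to the second decimal. Acly, which makes cytosolic acetyl-CoA from citrate, gave 0.045. The 95% intervals for these 4 genes, on the probe sets used, reached at most 0.46 upwards and -0.56 downwards.

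Of the 7 regulators, 2 fell (28.6%, where 2.6% of all genes fell) and 5 did not pass. Srebf1 had 1943, 2356 and 3194 in high-dosed animals, against 2404, 3048 and 2218 in controls 1, 2 and 9. The groups overlapped widely (-0.054 ± 0.13, limma adjusted p = 0.837), and the value turned to 0.077 without control 2. Srebf2 had 2311, 2728 and 3193 in high-dosed animals, against 2522, 2464 and 2424 in controls (0.12 ± 0.085, limma adjusted p = 0.438). The probe sets of these genes measure transcripts, not the cut nuclear proteins.

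Mlxipl had intensities of 608, 769 and 842 in high-dosed animals, against 1144, 816 and 1119 in controls 1, 2 and 9. Control 2 lay inside the high-dosed range, and 6 of 8 high-dosed animals lay below every control. Mlxipl fell to 0.76 of the control level (-0.40 ± 0.11, limma adjusted p = 0.0372). The call was lost in 6 of 22 other settings. With control 1 left out the value was -0.32 (limma adjusted p = 0.215), and with control 9 left out it was -0.33 (limma adjusted p = 0.137). Leaving out high-dosed animal 4 or 11 kept it at -0.40 (limma adjusted p = 0.0582 and 0.0517). Insig1, the anchor of Scap whose own gene is a target of nuclear SREBP, had 6175, 7997 and 9474 in high-dosed animals, against 11343, 9113 and 11300 in the controls. Animals 4 and 10 lay above control 2. Insig1 fell to 0.76 of the control level (-0.39 ± 0.11, limma adjusted p = 0.0443). Its call was lost in 12 of 22 other settings. The value was -0.34 with control 1 left out (limma adjusted p = 0.215) and -0.34 with control 9 left out (limma adjusted p = 0.149). It lay between -0.40 and -0.37 without any 1 of high-dosed animals 2, 3, 5, 6 and 11, with limma adjusted p-values from 0.0566 to 0.0665.

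The remaining regulators did not pass. Scap lay above the controls in all high-dosed animals, with 1607 to 2096 against 1573, 1552 and 1594, but animal 8 exceeded control 9 by little (0.22 ± 0.079, limma adjusted p = 0.104). Insig2, the other Insig gene of the list, gave -0.25 and Thrsp, a lipogenic protein responsive to thyroid hormone and carbohydrate, gave 0.058, the same sign in all 3 of its probe sets.

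**Figure D3:**
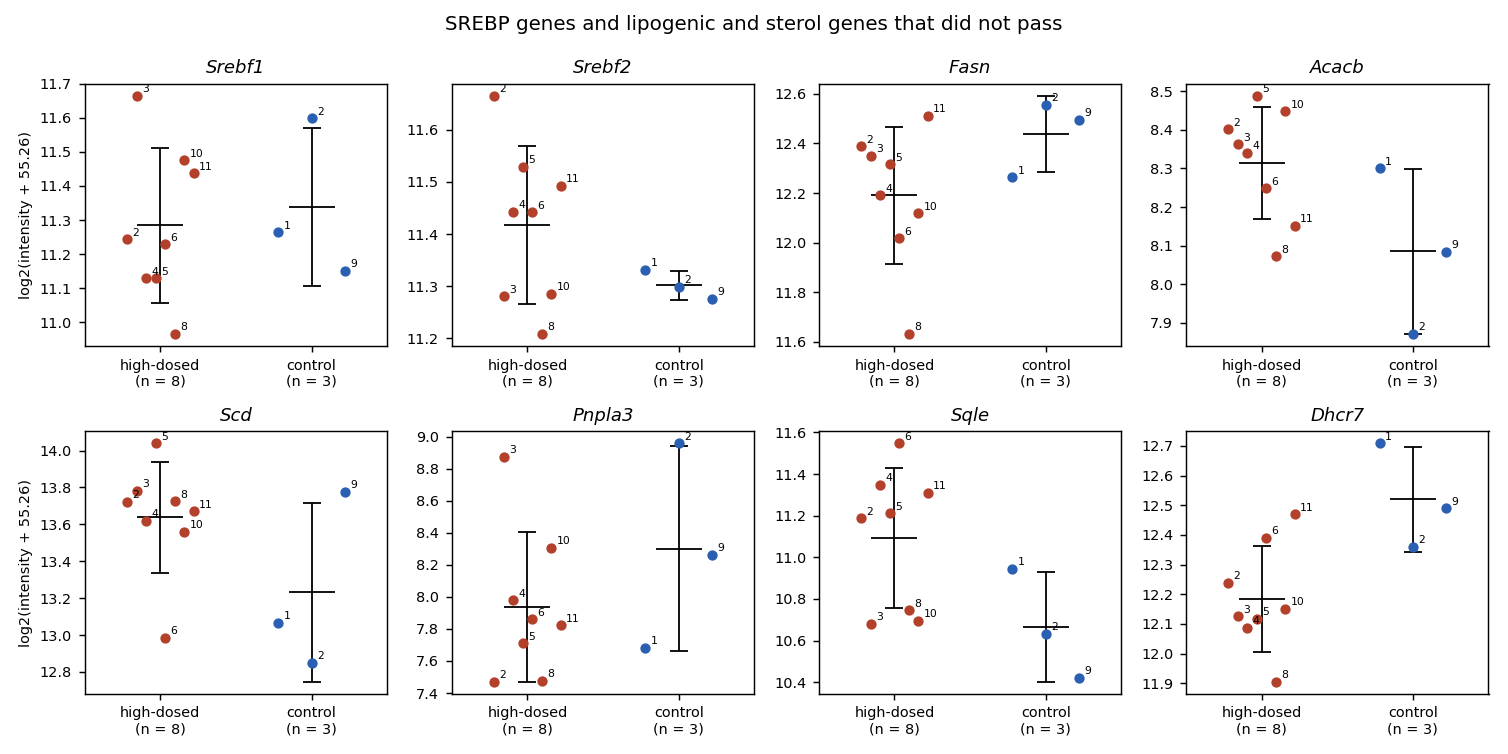
Log2(intensity + 55.26) of each animal for Srebf1, Srebf2 and 6 lipogenic and sterol genes that did not pass, high-dosed animals in red and controls in blue, labelled with the animal number, and bars for the mean ± SD (n = 8 and n = 3). The groups overlap in every panel, and animal 8 is the lowest high-dosed animal for Srebf1, Srebf2, Fasn, Acacb and Dhcr7.

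Among the 6 genes of triglyceride assembly, 1 rose (16.7%, where 7.23% of all genes rose). Lpin2, a phosphatidate phosphatase that makes diacylglycerol, had intensities of 1429, 1940 and 2656 in high-dosed animals, against 1588, 1142 and 1005 in controls 1, 2 and 9. Only animal 10 lay below a control. Lpin2 rose 1.61-fold, the largest change of the list (0.69 ± 0.17, limma adjusted p = 0.0255). Leaving out control 2 ended the call (0.64, limma adjusted p = 0.0874), as did leaving out control 9 (0.55, limma adjusted p = 0.109). The other 4 called members stayed called without control 2. Its relative Lpin1, with the same activity and a further role as a coactivator, had 1788 to 3005 in high-dosed animals, against 2243, 1657 and 3663 in controls (-0.10 ± 0.20, limma adjusted p = 0.791). Without control 9, the animal with the highest Lpin1, its value turned to 0.20.

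Agpat2, which acylates lysophosphatidate, had 3184 to 4012 in high-dosed animals, against 4049, 4143 and 4047 in controls. Its groups did not overlap (-0.23 ± 0.074, limma adjusted p = 0.0683), and it was called without high-dosed animal 10 (-0.26, adjusted p = 0.0332). Gpam, the mitochondrial acyltransferase that begins glycerolipid synthesis, gave -0.48 ± 0.20 (limma adjusted p = 0.152) with both probe sets below 0. Dgat1 and Dgat2, which add the last acyl chain, gave 0.075 and -0.018, with 95% intervals of -0.065 to 0.21 and -0.15 to 0.11. The 2 members that act on stored triglyceride did not pass: Pnpla3 had 122, 174 and 414 in high-dosed animals, against 150, 442 and 252 in controls (-0.36 ± 0.29, limma adjusted p = 0.478), and without control 2 its value was -0.035. Pnpla2, the adipose triglyceride lipase, gave -0.045, and 0.13 without control 2.

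In the sterol pathway, 0 of 20 members rose, 2 fell (Insig1 and Pmvk) and 18 did not pass, where 7.23% of all genes rose and 2.6% fell. At an unadjusted p below 0.05, Sqle, Mvd and Msmo1 stood higher and Insig1, Pmvk and Dhcr7 lower. Pmvk, which phosphorylates mevalonate phosphate, had intensities of 2142, 2501 and 2735 in high-dosed animals, against 3678, 3300 and 2813 in controls 1, 2 and 9. All 8 high-dosed animals lay below all controls, by little where animal 2 met control 9. Pmvk fell to 0.77 of the control level (-0.39 ± 0.084, limma adjusted p = 0.0138), and the call was lost without control 1 (-0.30, adjusted p = 0.105).

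Its neighbour in the pathway, Mvd, which decarboxylates mevalonate pyrophosphate, lay on the other side of 0, with 635 to 1108 in high-dosed animals and 677, 692 and 591 in controls (0.38 ± 0.15, limma adjusted p = 0.129). Only animals 8 and 10 lay among the controls. The other mevalonate genes, Acat2, Mvk, Idi1 and Fdps, had values from -0.021 to 0.13. For Mvk the probe set used gave 0.12 and its dimmer probe sets -0.18 and -0.10, so its direction rested on the probe set chosen. Sqle, the epoxidase that acts on squalene and a slow step of the pathway, had 1585, 2297 and 2938 in high-dosed animals, against 1918, 1531 and 1316 in controls 1, 2 and 9. Animals 3, 8 and 10 lay within the control range and the other 5 above it (0.42 ± 0.19, limma adjusted p = 0.17). Fdft1, which makes squalene, gave 0.21 and Lss, which closes the ring, 0.023. Both had a second probe set with a value below 0.

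The 8 late sterol genes went both ways and none passed. Msmo1, the methyl oxidase of the sterol ring, had 7091 to 10509 in high-dosed animals, against 7142, 6877 and 6070 in controls (0.35 ± 0.11, limma adjusted p = 0.0681). It was called without high-dosed animal 8 (0.39, adjusted p = 0.045) or animal 10 (0.39, adjusted p = 0.0432), the animals that overlapped the controls. Dhcr7, which completes cholesterol, had 3779, 4452 and 5615 in high-dosed animals, against 6639, 5202 and 5695 in controls 1, 2 and 9, and so lay in the opposite direction (-0.33 ± 0.11, limma adjusted p = 0.0624). It was called without high-dosed animal 6 (-0.36, adjusted p = 0.0477) or animal 11 (-0.37, adjusted p = 0.0327), those with its highest values in that group. Tm7sf2, a sterol reductase, gave -0.20 and Ebp, a sterol isomerase, -0.13. Ebp was called without control 2 (-0.22, adjusted p = 0.048). Hsd17b7, a ketosteroid reductase, gave 0.21, with a second probe set at -0.039, while Cyp51, Nsdhl and Sc5d lay between -0.072 and -0.045. A second Sc5d probe set of almost the same brightness (mean intensity 4844, against 4841 for the one used) gave 0.23, so the direction of Sc5d rested on the choice of probe set. Stard4, a cytosolic carrier of cholesterol, had 1352, 1511 and 1890 in high-dosed animals, against 1333, 1078 and 1644 in controls (0.20 ± 0.12, limma adjusted p = 0.329).

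Set against each other, the lipogenic and the sterol genes both had medians close to 0. Of 14 lipogenic genes 2 rose (14.3%, against 7.23% of all genes), 1 fell (7.14%, against 2.6%) and 11 did not pass, and their median log2 fold change was -0.0047. The median of the 20 sterol genes was 0.046, and over the 22 other settings the lipogenic median minus the sterol median ran from -0.14 to 0.039. Each animal's mean over a list, as log2 signal relative to the 11 arrays, overlapped between the groups for both lists. The lipogenic mean was -0.0067 ± 0.12 in high-dosed animals (SD, n = 8) and 0.018 ± 0.053 in controls (SD, n = 3). The sterol mean was 0.0083 ± 0.15 in high-dosed animals (SD, n = 8) and -0.022 ± 0.14 in controls (SD, n = 3). These are descriptions of lists chosen with results known, and no test was made on them.

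**Figure D4:**
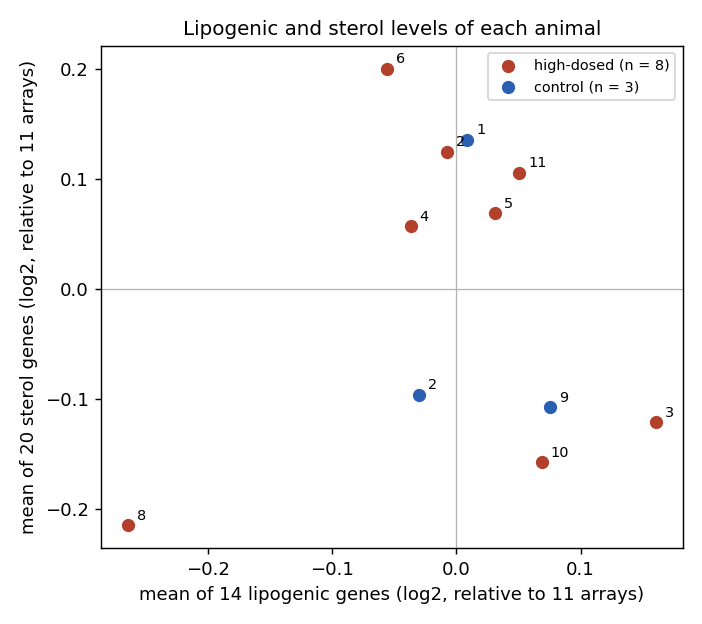
Mean log2 signal, relative to the 11 arrays, over the 14 lipogenic genes (x axis) and the 20 sterol genes (y axis), 1 point per animal labelled with its number, high-dosed in red and controls in blue. The controls lie among the high-dosed animals on both axes, and high-dosed animal 8 is lowest on both, at -0.26 and -0.21.

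The spread within the high-dosed group was larger than the difference between the group means for both lists. The lipogenic means of high-dosed animals ran from -0.26 in animal 8, the one labelled week 10, to 0.16 in animal 3, and animal 8 had the lowest value of the 8 for 8 of 14 lipogenic genes. The sterol means ran from -0.21 in animal 8 and -0.16 in animal 10 to 0.20 in animal 6. Animal 6 was higher than animal 8 for 20 of 20 sterol genes and for 11 of 14 lipogenic genes, a comparison chosen after the values were seen. Animal 6 was higher than animal 8 for 63.8% of all 10714 genes, and it had the highest median intensity of the 11 arrays, 186.6, against 149.3 in animal 8. Animal 6 had the highest sterol value of the 8 for 10 of 20 genes, and animal 8 the lowest for 10 of 20. The share of all genes for which animal 8 was lowest, or animal 6 highest, was not counted. These counts therefore do not set the lipid genes of either animal apart from its other genes. Among controls the sterol mean was 0.14 in animal 1, -0.096 in animal 2 and -0.11 in animal 9. Lipogenic and sterol levels did not run together in every animal, as animal 3 had the highest lipogenic mean, 0.16, with a low sterol mean, -0.12, and animal 6 had a sterol mean of 0.20 with a lipogenic mean of -0.056.

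**Figure D5:**
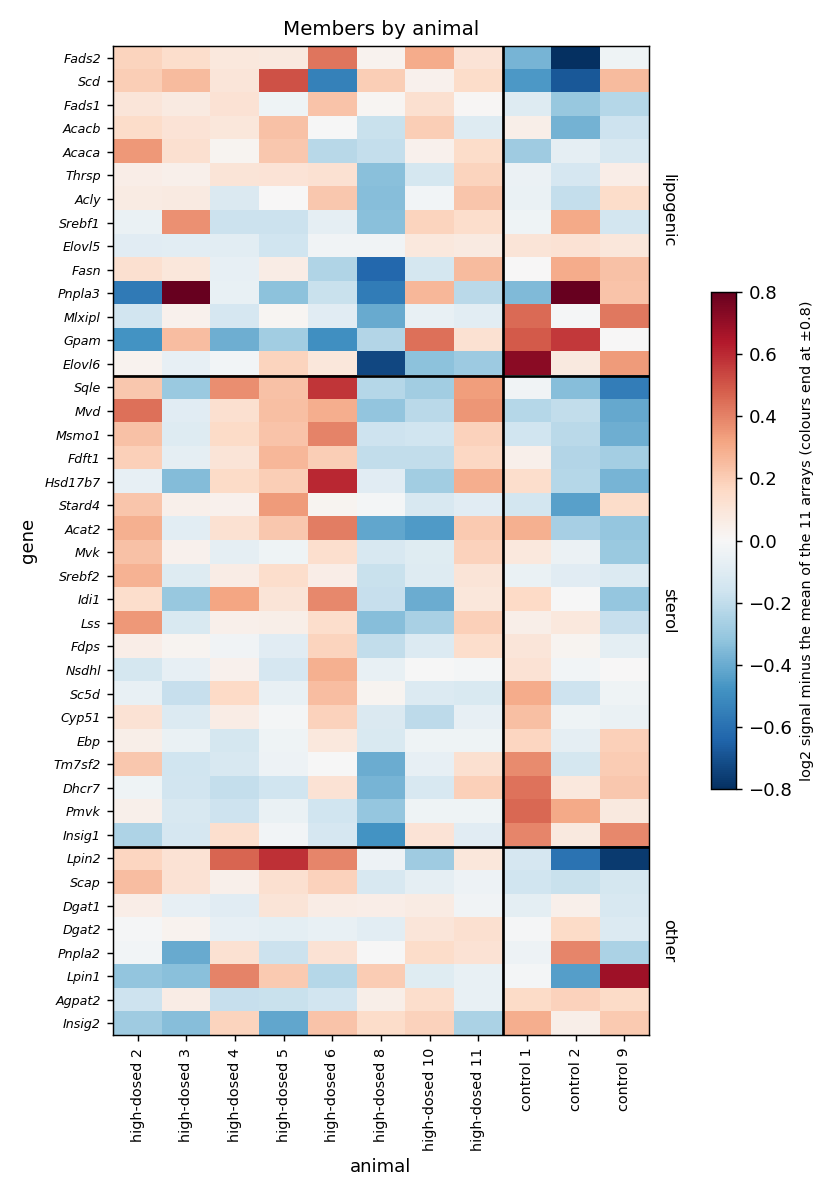
Log2 signal of each member in each animal, minus its mean over the 11 arrays, with high-dosed animals left of the line and controls right of it, and genes sorted by fold change within the lipogenic, sterol and other lists. The column of high-dosed animal 8 is blue for many lipogenic and sterol genes, and that of animal 6 is red for most sterol genes.

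Without high-dosed animals 8, 10 and 11, the arrays that stood apart, 6 of 42 members rose and 4 fell, where 4.41% of all genes rose and 1.81% fell in that setting. Beside Fads1, Fads2 and Lpin2 the rises were then Mvd (0.48, adjusted p = 0.0352), Msmo1 (0.44, adjusted p = 0.0285) and Scap (0.30, adjusted p = 0.0275). Elovl5 (-0.19, adjusted p = 0.0213) and Agpat2 (-0.29, adjusted p = 0.0326) fell beside Pmvk and Insig1, and Mlxipl did not pass (-0.35, adjusted p = 0.0837). The log2 fold changes of these 5 added genes had the same sign with all animals.

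Other genes of the pathways, from a list of 39 of which 33 were measured, gave 1 rise, 1 fall and 31 that did not pass, with a median of -0.0050. These are 3.03% each way, where 7.23% of all genes rose and 2.6% fell. Mylip, a ubiquitin ligase that marks lipoprotein receptors for breakdown and answers to the sterol sensor LXR, had intensities of 214, 244 and 305 in high-dosed animals, against 100, 164 and 163 in controls 1, 2 and 9. All high-dosed animals lay above all controls, and Mylip rose 1.58-fold (0.66 ± 0.13, limma adjusted p = 0.00722). Rdh11, a retinal reductase known as an SREBP target, had 1225, 1400 and 1473 in high-dosed animals, against 1936, 1695 and 1751 in controls. It lay below all controls in all high-dosed animals and fell to 0.78 of the control level (-0.36 ± 0.069, limma adjusted p = 0.00704). Without control 1 neither Mylip (0.50, limma adjusted p = 0.0569) nor Rdh11 (-0.31, limma adjusted p = 0.0598) was called. The counts of this list were 2 higher and 4 lower without high-dosed animal 2, 3 lower without high-dosed animal 10 and 2 lower without control 9. All high-dosed animals lay on one side of all controls for 6 of these genes, 18.2% of the list, where 12.1% of all genes did not overlap. They lay above for Mylip and the elongase Elovl2 (8.69% of all genes lay above), and below for Rdh11, the elongation enzyme Hsd17b12 and the acyl-CoA synthetases Acsl3 and Acsl5 (3.37% of all genes lay below). Among those that did not pass were Me1, Acss2, Slc25a1 and Pklr, which supply reducing power, acetyl groups, citrate and pyruvate for lipogenesis.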

How the data were processed

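RNA of 11 livers was measured on Affymetrix arrays. The deposited values are the intensity of each of 31099 probe sets on a linear scale, 1 to 34328. MAS5 is named, without version or role, in the submitters' processing notes, and any scaling between arrays by the authors is not stated there. Each array is 1 animal. No detection calls were used. For arrays the number of animals limits the precision, and nothing states that any 2 arrays shared an extraction or scan.

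Log2(intensity + 55.26) was taken, the pseudocount being the 20th percentile of all values, so fold changes are on that scale and are understated for dim genes. Leaving out 57 control probe sets and those with a mean log2 signal below the 40th percentile (7.40) left 18625. They were fitted with limma 3.58.1 in R 4.3.3, with an intensity trend, two-sided. Of all probe sets, 20832 had 1 symbol in the platform annotation, 436 had several, and 20764 matched the RefSeq table of GRCr8 by gene identifier. For 10714 genes the probe set with the highest mean log2 signal was kept and p-values were adjusted by Benjamini-Hochberg over these genes. The fit was tested on simulated data. Of 20 members with more than 1 probe set passing, 6 had one of opposite sign.

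The members, lists and naming rule (called members, SREBP genes and key enzymes, and the member of each role with the smallest adjusted p) were chosen with earlier results of these data known. Elovl5, Elovl6, Scap, Agpat2, Mvd and Msmo1 were described in detail after their values were seen. Alternatives were the pseudocount, filter, normalization, trend, probe set rule, adjustment and arrays left out, 22 in all.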

Additional observations from a re-analysis of the deposited data

Results flagged for a closer look

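Among 46 values tested over the 8 high-dosed animals, 3 had a single animal far from the others, by a gap that about 1 in 20 groups would show by chance. Gaps and ranges were taken on the log2(intensity + 55.26) scale. Mlxipl stood at 608 in high-dosed animal 8, with a gap to the next of 0.57 of the whole range. Scd stood at 8044 in high-dosed animal 6, with a gap of 0.546 of the range. Nsdhl, a late sterol dehydrogenase, stood at 8701 in high-dosed animal 6, the highest, with a gap of 0.585. Without these animals the log2 fold changes were -0.36 for Mlxipl, 0.50 for Scd and -0.087 for Nsdhl.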

How the results depend on the processing

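Of 42 members, 31 kept their direction in all of the 22 other settings that tested them, and 11 turned sign in at least 1. The call was lost in at least 1 by 5 of the 6 called members, and 7 gained one. Fads1 alone was called in all 22. Acacb, Gpam and Pnpla3 lay under the filter at the 60th percentile, so 21 settings tested them. The lipogenic median in that setting is without these genes. The members that turned sign lay between -0.10 and 0.12 and were not called. Under quantile normalization Lss was -0.0034 and 2 other pathway genes fell. Under median centring Fdps was 0.018, Dgat2 was 0.020, 1 member fell and 139 of all genes fell. With the mean over probe sets of a gene Mvk was -0.055, Lss -0.11 and Sc5d 0.060. Without high-dosed animals 8, 10 and 11, Fdps was 0.010, 6 members rose and 472 of all genes rose. With the filter at the 60th percentile 0 other pathway genes rose and 3 fell, but Mylip lay under that filter and was not tested there. In a fit over gene probe sets alone, an alternative chosen after seeing the data, 3 fell. Leaving out 1 animal at a time gave 1 to 4 members higher and 0 to 5 lower, 220 to 1036 of all genes higher and 75 to 318 lower, and 0 to 2 other pathway genes higher and 0 to 4 lower. The lowest counts over all genes came without control 1. The highest, 1036 higher and 318 lower, came without high-dosed animal 2, the array with the highest beta-actin ratio. Other lone animals left out are named with the results. The same step gave Srebf1 -0.15 to 0.077, Acly -0.034 to 0.13, Idi1 -0.060 to 0.18, Fdps -0.066 to 0.020, Lss -0.059 to 0.073, Cyp51 -0.12 to 0.023, Sc5d -0.15 to 0.085, Lpin1 -0.36 to 0.20, Dgat2 -0.079 to 0.052 and Pnpla2 -0.19 to 0.13. The cause of these changes was not tested. No paired analysis was possible because the groups share only 1 animal number, which marks no shared source in the labels. With 3 controls, changes within the intervals given could not be detected, and the pseudocount understates fold changes of dim genes such as Gpam, Pnpla3 and Acacb.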
